A study of Mus musculus with 8 samples.

Results

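The enzymes that break down amino acids were followed in the livers of mice lacking ZFP36L1 and ZFP36L2 in hepatocytes. The 55 genes were taken by name from a list of 55 enzymes in 9 routes, and all 55 were found among the 22052 genes of the table. The routes are those of tyrosine with phenylalanine (7 genes), tryptophan (7), histidine (4), serine with glycine and alanine (11), the branched-chain amino acids (12), lysine (2), methionine with cysteine (7), proline (3), and dimethylglycine with sarcosine (2). Whole liver RNA came from 8 adult male mice of strain C57BL/6 aged 8 weeks, all of which had received corn oil by the intraperitoneal route. Controls (4 mice) had the genotype Zfp36l1fl/fl/Zfp36l2fl/fl. The double knockouts (dKO, 4 mice) had the genotype Zfp36l1fl/fl/Zfp36l2fl/fl/Alb-Cre, so both groups shared the floxed alleles and only the dKO mice also carried the recombinase. In Alb-Cre mice the albumin promoter drives the recombinase in hepatocytes, so the other cells of the liver are not expected to lose either gene. The labels give each mouse its own number and tie none to a litter or a day.

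The liver is the main site at which surplus amino acids are degraded. Aminotransferases and dehydratases take off the nitrogen, which goes to urea, and the carbon skeletons pass to glucose, ketone bodies or the citric acid cycle. Several of the first enzymes, such as tyrosine aminotransferase, tryptophan dioxygenase and serine dehydratase, are known for being induced by glucocorticoids, glucagon and feeding on protein. The deleted proteins bind AU-rich elements in 3' untranslated regions (UTRs) of RNA and promote decay of the mRNA.

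Levels are normalised read counts, that is reads assigned to a gene divided by 1 size factor per library, given as mean ± SD (n = 4 livers per group). They are not corrected for gene length. Each change is the dKO mean minus the control mean of log2(value + 0.5), marked log2, with its standard error (SE). A gene is said to have risen or fallen where limma's adjusted p (Benjamini-Hochberg over 20055 tested genes) was under 0.05. Reads assigned to genes numbered 15253827 to 19299556 per library. The targeted genes checked the labels: for Zfp36l1 the values of controls 1 to 4 were 1321, 1336, 1182 and 1642, and those of knockouts 1 to 4 were 214, 213, 209 and 267. For Zfp36l2 they were 1722, 1795, 997 and 1819.6 in controls and 696, 794, 771 and 923 in knockouts. Lists of 4 values below keep this order. Both fell with no overlap of the groups (2-sided exact permutation p = 0.0286 for each, the smallest that the 70 assignments allow). Scores on the first principal component ran from -76.5 to -67.7 in controls 1 to 3 and from 57.5 to 68.9 in knockouts, and control 4 stood apart from its group at -43.3.

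Whole liver holds several cell types, and markers of some of them differed between the groups. The counts below stand beside 21.2% of all tested genes that rose and 17.0% that fell. In the endothelial list 33.3% rose and 16.7% fell, and in the T and NK cell list 28.6% rose and none fell. Hepatocyte markers were abundant in every liver, as the label of the tissue calls for: 4 of 10 rose (Hpx, Ahsg, Fgb and Trf) and 1 fell (Ttr, to 54.9% of control). Their summed level ran from 1472082 to 1503385 in controls and 1626276 to 1749835 in dKO livers. Alb, the largest part of that sum, had no call (773160 ± 55865 against 824048 ± 26104, limma's adjusted p = 0.785). Of 10 macrophage and monocyte markers 8 rose, with sums of 4099.9 to 10494 in controls and 14135 to 18455 in dKO livers. All 7 neutrophil markers rose (75.0 to 347 in controls and 689.9 to 985 in dKO livers), and Ltf was at 0 in every control. Among stellate cell markers 5 of 8 rose (3897 to 11434 in controls and 19157 to 25149 in dKO livers), all 6 bile duct markers rose (636 to 1523 in controls and 7811 to 12155 in dKO livers), 2 of 6 endothelial markers rose and 1 fell (4173 to 5058 in controls and 4758 to 6212 in dKO livers), and 2 of 7 T and NK cell markers rose (42.1 to 76.6 in controls and 152 to 207 in dKO livers). Control 4 had the highest sum among controls in each of these lists except the endothelial one. Without it the highest sums in controls were 6895 for macrophages and monocytes, 139.5 for neutrophils, 5120.2 for stellate cells and 788 for bile duct. The matrix genes Col3a1 and Col1a1 were the largest part of the stellate sum in dKO livers (means 11586 and 6057, of a mean sum of 23355). In the same list Lrat and Reln had no call (limma's adjusted p = 0.666 and 0.273). In bulk RNA, fewer cells of a type and less RNA per cell cannot be told apart, and the part of these cells in the results below was not tested. The share of mitochondrially encoded genes, 4.06% to 4.74% in controls against 3.09% to 3.70% in knockouts, was likewise not tested for its part.

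Most of the enzymes were lower in knockout livers. Of the 55, all of which were tested, 33 fell, 6 rose and 16 did neither. That is 60.0% lower and 10.9% higher, where 17.0% of all tested genes were lower and 21.2% higher. Among the 6558 tested genes with a mean of 300 or more, a level that each of the 55 reaches, 32.2% were lower and 21.6% higher, or 53.8% in either direction, where 38.2% of all tested genes changed. The median log2 change was -0.44 over the 55 and 0.03 over all tested genes, and the single changes ran from -1.14 (Amt) to 2.22 (Acmsd). In 33 enzymes all 4 dKO livers lay below all 4 controls and in 5 they lay above, against 16.9% and 19.4% of tested genes. The falls were moderate: only Haao and Amt went below the control level by more than 1 on the log2 scale. With quantile normalization 28 fell and 12 rose. Over all tested genes 4312 fell and 3638 rose in that setting, where 3410 and 4244 did before. That scaling moved the median of all genes by -0.11, while the median of the enzymes became -0.28, so the enzymes' median relative to that of all genes went from -0.47 to -0.20. Without control 4 the counts were 33 and 6.

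**Figure D1:**
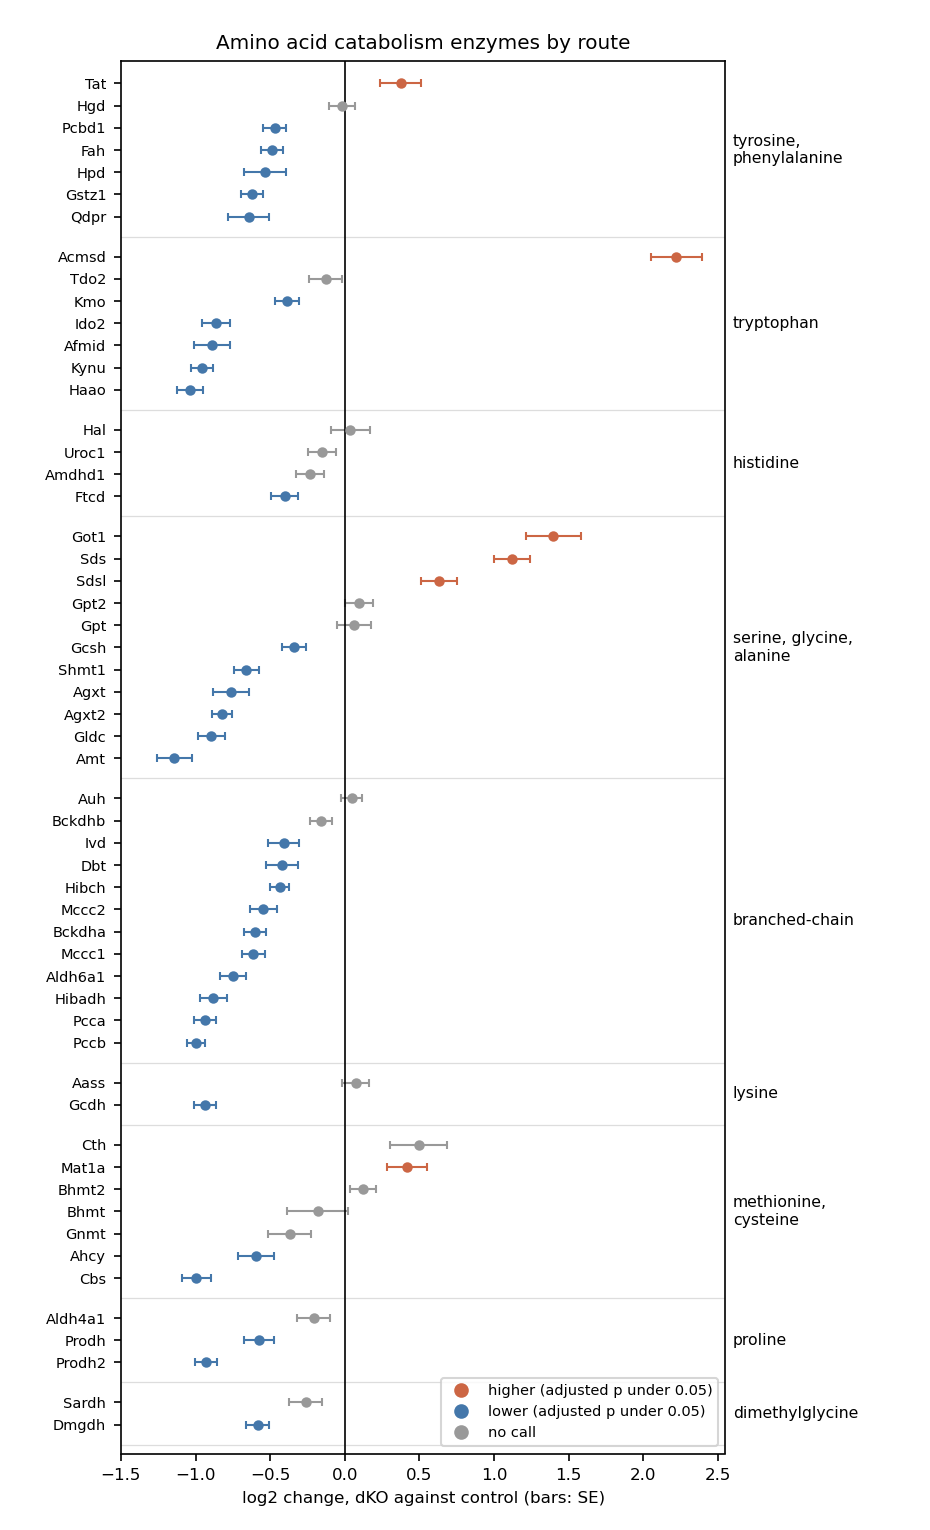
Log2 change of each of the 55 enzymes, dKO against control, by route, with bars of 1 SE (4 livers per group). Orange points rose, blue points fell and grey points did neither at an adjusted p of 0.05: 33 points are blue and lie between -1.14 and -0.34, and Acmsd at 2.22 is the farthest to the right.

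Because the deleted proteins bind AU-rich elements, the annotated 3' UTRs of the enzymes were searched for the heptamer TATTTAT (sense strand, GENCODE M21, assembly GRCm38, the same as mm10). It was present in 10 of 55 enzymes, or 18.2%, and in 30.1% of the 15416 tested genes with an annotated 3' UTR. The 10 were Got1 and Sds, which rose, Kynu, Kmo, Aldh6a1 and Prodh, which fell, and Tdo2, Gpt2, Hal and Auh, which did neither. Of the 45 without it, 4 rose, 29 fell and 12 did neither, and Acmsd, with the largest rise, was one of these. Over all tested genes 21.2% rose and 17.0% fell. These shares were not taken for all genes with the heptamer, so no contrast between enzymes with and without it is read from the counts. The sites below, with the heptamer in capitals and coordinates of the heptamer, are those of both enzymes that rose and of 3 of the 4 that fell. That of Aldh6a1 is not printed.
Got1 (chr19:43499902-43499908, minus strand): gtggccaaTATTTATatcatgac
Sds (chr5:120483918-120483924, plus strand): taaatataTATTTATagagcaaa
Kynu (chr2:43682164-43682170, plus strand): taaaatttTATTTATttatttat
Kmo (chr1:175661058-175661064, plus strand): ccccctttTATTTATcattgtat
Prodh (chr16:18060631-18060637, minus strand): gtagcaacTATTTATgaaaaaga
The Kynu site is the first of 3 that overlap each other, starting 43682164, 43682168 and 43682172, and lies in 1 of the gene's 3 annotated 3' UTR transcripts. Kmo has 6 such sites, all in 1 of 2 transcripts, and the site of Prodh is in 1 of 4. Sds carries its site in both of its transcripts. Got1 and Aldh6a1, which fell (log2 -0.75), each have 1 transcript, which holds the site. Got1 and Sds, whose rises came next after that of Acmsd, thus hold 1 site each, as do Prodh and Aldh6a1, which fell. Kynu and Kmo, with 3 and 6 sites, fell as well. A match describes these letters only and shows no binding.

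The counts for each route below stand beside 17.0% of all tested genes that fell and 21.2% that rose. Among genes with a mean of 300 or more these were 32.2% and 21.6%. In the tyrosine and phenylalanine route 5 of 7 enzymes fell and 1 rose. The one that rose was Tat, the aminotransferase that starts tyrosine breakdown. Tat held 29703, 39746, 27165 and 29169 in controls and 43138, 34430.1, 37971 and 46799 in knockout livers (31446 ± 5640.1 against 40584 ± 5473). Control 2 lay within the dKO range, and the call was marginal (log2 0.37, SE 0.14, limma's adjusted p = 0.048): it was lost in 11 of 18 other processing settings, over which the adjusted p went from 0.00217 to 0.136. Hpd, the dioxygenase that makes homogentisate, fell from 38243 ± 2410.1 to 26853 ± 5724 (log2 -0.53, SE 0.14, limma's adjusted p = 0.00907), with dKO 2 and 3 well below dKO 1 and 4. Hgd, which opens the ring of homogentisate, held 10318, 11496, 9873 and 11039.7 in controls against 11647, 9662, 10798 and 10084 in the dKO, with overlapping groups (log2 -0.02, limma's adjusted p = 0.885).

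The final enzymes of tyrosine breakdown fell with little spread. Gstz1, the maleylacetoacetate isomerase (chromosome 12, 87147165 to 87164723, plus strand), held 10964, 11958, 11845 and 11741 in controls and 8095, 7297, 7138 and 7720.5 in knockout livers (log2 -0.62, SE 0.074, limma's adjusted p = 3.3e-05). Fah, which cleaves fumarylacetoacetate in the last step, held 9960.4, 10309, 10817 and 10276 in controls against 7913, 7079, 6936 and 7615 in the dKO (log2 -0.49, SE 0.074, limma's adjusted p = 0.000216). In both, every dKO liver lay below every control, at 65.0% and 71.4% of the control mean. The 2 enzymes that recycle tetrahydrobiopterin, the cofactor of phenylalanine hydroxylation, fell as well. Qdpr, the dihydropteridine reductase, held 6149, 6789.8, 9021 and 8211 in controls and 5909, 4790.1, 4599 and 3977 in knockout livers (log2 -0.64, SE 0.14, limma's adjusted p = 0.0023). Pcbd1, the pterin dehydratase, held 3318, 3476, 3976 and 3819 in controls against 2742, 2769.9, 2483 and 2529 in the dKO (log2 -0.47, SE 0.078, limma's adjusted p = 0.000443). For Qdpr 18.6% of the exonic bases lie in an annotated antisense gene, and for Gstz1 12.2%. No source used here gives the strand setting of the counting, so such reads cannot be assigned to one or the other gene with certainty.

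Tryptophan is carried along the kynurenine route, which ends either in the precursor of NAD or, past ACMSD, in complete oxidation. Of its 7 enzymes 5 fell and 1 rose, Acmsd, with the largest change of the 55, while Tdo2 did not pass the test. Tdo2, the liver dioxygenase that opens the route, held 29285, 33453, 26397 and 32514 in controls against 31914, 26980.1, 24840.5 and 27604 in the dKO, with overlapping groups (log2 -0.13, SE 0.11, limma's adjusted p = 0.398). Ido2, a second dioxygenase for tryptophan, fell from 1764 ± 186 to 969.6 ± 102 (log2 -0.86, SE 0.096, limma's adjusted p = 2.0e-05). Afmid, the formamidase that frees kynurenine, fell from 798 ± 100.5 to 431 ± 60.0 (log2 -0.89, SE 0.12), though 44.2% of its exonic bases are shared with another annotated gene on the same strand. Kmo, the hydroxylase of kynurenine, fell from 5578 ± 510.3 to 4251 ± 250.5 (log2 -0.39, SE 0.081, limma's adjusted p = 0.00223), and its call was lost with quantile normalization (adjusted p = 0.056).

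Kynu, the kynureninase (chromosome 2, 43555329 to 43682715, plus strand), held 4123, 4161, 3809 and 3699.7 in controls and 2078, 2147, 2011 and 1901 in knockout livers, which left 51.5% of the control mean (log2 -0.96, SE 0.071, limma's adjusted p = 8.0e-07). Haao, the dioxygenase that makes the precursor of quinolinate (chromosome 17, 83831156 to 83847963, minus strand), held 7835, 7948, 9842 and 9065 in controls against 4571, 4150.3, 4141 and 4007 in the dKO (log2 -1.04, SE 0.087, limma's adjusted p = 2.1e-06). The highest dKO liver lay far below the lowest control in each. Acmsd, the decarboxylase that draws this same precursor away from NAD synthesis (chromosome 1, 127729413 to 127767978, plus strand), held 292, 389, 348 and 528 in controls and 2309.9, 1577, 1484 and 1829.6 in knockout livers. Every dKO liver lay above every control, dKO 1 highest and control 4 highest among controls, and the mean was 463% of the control mean (log2 2.22, SE 0.17, limma's adjusted p = 1.1e-06). Without control 4 the change was 2.38 and without dKO 1 it was 2.09. Macrophages also express Kmo and Kynu, and as given above macrophage markers were higher in knockout livers. Bulk RNA does not assign reads to a cell type, and the part of these cells in the values of both genes was not tested.

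**Figure D2:**
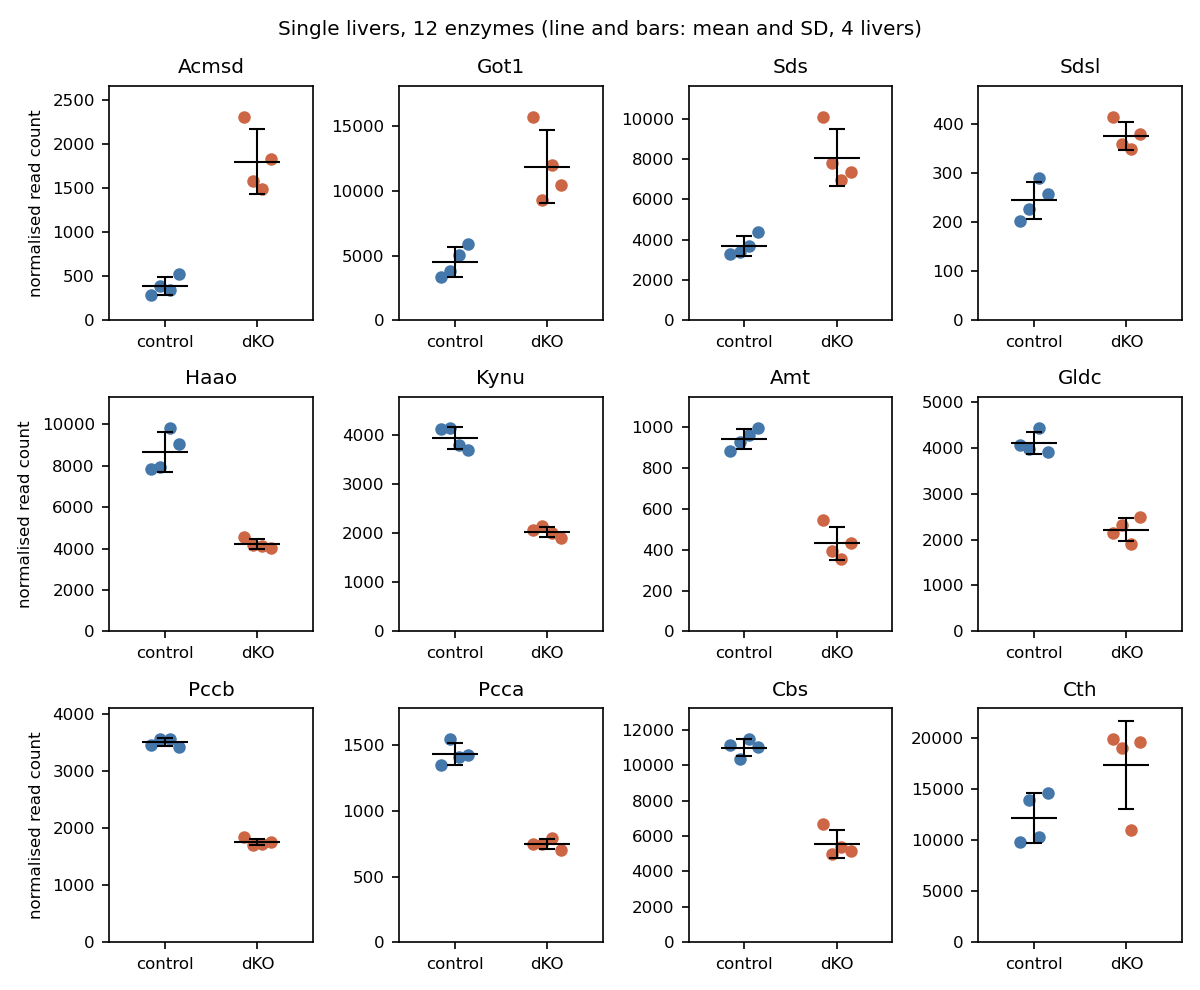
Normalised read counts of 12 enzymes in each of the 8 livers (points), with the mean and SD of 4 livers (lines). The dKO livers lie wholly above the controls for Acmsd, Got1, Sds and Sdsl and wholly below them for Haao, Kynu, Amt, Gldc, Pccb, Pcca and Cbs, while for Cth dKO 3 (10970) lies among the controls.

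Of the 4 histidine enzymes 1 fell and none rose. That is 25.0% lower, below the 32.2% of genes with a mean of 300 or more. Hal, the lyase that starts the route, held 9623, 10133, 12444 and 11597 in controls against 13460, 11169, 8726 and 11917 in the dKO, with overlapping groups (log2 0.04, SE 0.13, limma's adjusted p = 0.847). Its neighbour Amdhd1, the imidazolonepropionase, 4033 bases away on chromosome 10, stood at 5957 ± 477 and 5080.2 ± 624 (log2 -0.23, limma's adjusted p = 0.0677). Uroc1, the urocanase between them in the route, was nearly constant in controls (8793, 8957, 9043 and 8965) and varied more in knockout livers (9558, 8059, 6777 and 7992), with no call (log2 -0.15, limma's adjusted p = 0.235). Ftcd, which passes the last carbon to folate, held 9246, 10049, 11540.4 and 9715 in controls and 8397, 7674, 7752 and 6826 in knockout livers. It fell with no overlap of the groups (log2 -0.40, SE 0.091, limma's adjusted p = 0.00374), and the call was lost with quantile normalization (adjusted p = 0.297).

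In the serine, glycine and alanine group 6 of 11 enzymes fell and 3 rose. Both serine dehydratases and an aminotransferase were higher, and the enzymes that act on glycine and glyoxylate were lower. Got1, the cytosolic aspartate aminotransferase (chromosome 19, 43499752 to 43524605, minus strand), held 3369, 3778, 5064 and 5908 in controls and 15738, 9295, 11977 and 10476 in knockout livers. The lowest dKO liver lay above the highest control, at a mean of 262% of control (log2 1.40, SE 0.18, limma's adjusted p = 7.4e-05). Sds, the serine dehydratase that turns serine into pyruvate (chromosome 5, 120476526 to 120483932, plus strand), held 3273, 3418, 3675 and 4407 in controls against 10113, 7808, 6969.5 and 7382 in the dKO, with dKO 1 highest (log2 1.12, SE 0.12, limma's adjusted p = 1.7e-05). Its neighbour Sdsl, a serine dehydratase-like gene 3715 bases away on the opposite strand, held 202, 227, 289 and 257 in controls against 414, 359, 349 and 379 in the dKO (log2 0.63, SE 0.12, limma's adjusted p = 0.00114). In all 3 genes every dKO liver lay above every control, and the calls of Got1, Sds and Sdsl stood in all 18 other settings. For Sds 29.6% of the exonic bases lie in an annotated antisense gene.

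The alanine aminotransferases did not pass the test. Gpt, the cytosolic form, held 5916, 6568, 7323 and 7345 in controls against 8381, 7208, 5725 and 7227 in the dKO (log2 0.06, limma's adjusted p = 0.694), and Gpt2, the mitochondrial form, held 7168, 8189, 8248 and 9153 in controls against 9732, 7961, 8149.9 and 9142 in the dKO (log2 0.10, limma's adjusted p = 0.467). The groups overlapped in both. The glyoxylate aminotransferases fell. Agxt, the peroxisomal enzyme that turns glyoxylate into glycine, went from 6884 ± 590.2 to 4098 ± 769 (log2 -0.76, SE 0.12, limma's adjusted p = 0.000273). Agxt2, its mitochondrial counterpart, held 2574, 2762, 2827 and 2656 in controls and 1536, 1465, 1583 and 1535 in knockout livers, a narrow range within each group (log2 -0.82, SE 0.065, limma's adjusted p = 1.3e-06).

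The glycine cleavage system, which splits glycine into carbon dioxide, ammonia and a 1-carbon unit, fell in each of its 3 specific subunits. Gldc, the decarboxylase (P protein), held 4068, 3963, 4438 and 3908 in controls and 2144, 2327, 1894 and 2480.4 in knockout livers (log2 -0.89, SE 0.088, limma's adjusted p = 7.4e-06). Amt, the aminomethyltransferase (T protein), held 883, 926, 960.3 and 997 in controls against 544, 394, 356 and 432 in the dKO, the largest fall of the 55 (log2 -1.14, SE 0.12, limma's adjusted p = 9.8e-06). Gcsh, the lipoyl carrier (H protein), fell from 1655 ± 105 to 1308 ± 116 (log2 -0.34, SE 0.082, limma's adjusted p = 0.00548). The subunits were thus left at 54.0%, 45.8% and 79.0% of control. Shmt1, the cytosolic enzyme that interconverts serine and glycine, fell from 3375 ± 358 to 2132 ± 141 (log2 -0.66, SE 0.085, limma's adjusted p = 6.3e-05).

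In the branched-chain route 10 of 12 enzymes fell and none rose. Leucine, isoleucine and valine share the branched-chain keto acid dehydrogenase. Its E1 subunits Bckdha and Bckdhb stood at 66.1% and 89.7% of control (log2 -0.60, SE 0.073, limma's adjusted p = 4.3e-05 for Bckdha, and log2 -0.16, limma's adjusted p = 0.115 for Bckdhb). For Bckdhb no call was made although the groups did not overlap (1271, 1367, 1380 and 1368 against 1265, 1225, 1078 and 1262). For Bckdha 61.7% of the exonic bases lie in an annotated antisense gene. The E2 core Dbt fell from 1792 ± 224 to 1339 ± 166, with dKO 1 within the control range (log2 -0.42, SE 0.11, limma's adjusted p = 0.00855).

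On the leucine branch Ivd, the isovaleryl-CoA dehydrogenase, fell from 4614 ± 293 to 3501 ± 528 (log2 -0.41, SE 0.10, limma's adjusted p = 0.00716), a call lost with quantile normalization (adjusted p = 0.0646). The 2 subunits of methylcrotonyl-CoA carboxylase followed, Mccc1 from 1002 ± 16.1 to 657 ± 54.6 and Mccc2 from 1214 ± 56.2 to 836 ± 98.6, or to 65.5% and 68.8% of control (limma's adjusted p = 5.7e-05 and 0.000497). Auh, the next hydratase, did not change by the test: it held 794, 776, 767 and 751 in controls and 849.7, 771, 785 and 783 in knockout livers (log2 0.05, SE 0.070, limma's adjusted p = 0.646).

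Propionyl-CoA carboxylase, which takes up the propionyl-CoA left by valine and isoleucine, had both subunits near 50% of control. Pccb (chromosome 9, 100982032 to 101034898, minus strand) held 3460.5, 3557, 3569 and 3428 in controls and 1837, 1713, 1716 and 1761 in knockout livers, the smallest adjusted p of the 55 (log2 -1.0, SE 0.062, limma's adjusted p = 1.9e-07). Pcca held 1345, 1547, 1404 and 1424 in controls against 749, 749.8, 791 and 700.2 in the dKO (log2 -0.93, SE 0.074, limma's adjusted p = 1.3e-06). Both groups were tight and far apart, at 50.1% and 52.3% of control. On the valine branch Hibadh, the hydroxyisobutyrate dehydrogenase, held 5154, 6019, 5822 and 5809 in controls and 3561, 3153, 2746 and 2969 in knockout livers (log2 -0.88, SE 0.089, limma's adjusted p = 8.5e-06). The other valine enzymes also fell, the hydrolase Hibch to 73.9% and the semialdehyde dehydrogenase Aldh6a1 to 59.3% of control (log2 change -0.44 and -0.75, limma's adjusted p = 0.000206 and 2.6e-05). For Aldh6a1 18.6% of the exonic bases lie in an annotated antisense gene.

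Of lysine breakdown 2 enzymes were listed, the first of the route and a late one, of which 1 fell. Aass, the bifunctional enzyme that starts the route, held 6099, 7049, 6622 and 7222 in controls against 7419, 7545, 6109 and 7337 in the dKO, where dKO 3 lay within the control range and the others above every control (log2 0.07, limma's adjusted p = 0.563). Gcdh, the glutaryl-CoA dehydrogenase shared with tryptophan, held 10538, 11274, 10331 and 11049 in controls and 6055, 5664, 5142 and 5719 in knockout livers, 52.3% of control with no overlap (log2 -0.94, SE 0.075, limma's adjusted p = 1.4e-06).

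Of 7 enzymes of methionine and cysteine 2 fell and 1 rose, or 28.6% and 14.3%. Neither share was above that of genes with a mean of 300 or more (32.2% lower and 21.6% higher). Mat1a, which makes S-adenosylmethionine in hepatocytes, held 50728, 61150.1, 62614 and 64405 in controls and 80796, 67602, 78573 and 92799 in knockout livers. Every dKO liver was above every control, at 134% of control in the means (log2 0.42, SE 0.13, limma's adjusted p = 0.0241). The call was lost without control 1 (adjusted p = 0.0738), without dKO 4 (0.0742) and with the mouse number as a block (0.0525). Gnmt, which spends S-adenosylmethionine on glycine, held 23563, 31045, 38827 and 36395 in controls against 28291, 24302, 22499 and 24036 in the dKO, with control 1 below 3 of the 4 knockouts (log2 -0.37, limma's adjusted p = 0.0641). Gnmt was called lower in 3 of 18 other settings, namely edgeR, DESeq2 and the setting without control 1. Ahcy, which hydrolyses the S-adenosylhomocysteine so formed, held 23129, 28332, 28705 and 30814 in controls and 21233, 16519.8, 15871 and 19869 in knockout livers (log2 -0.60, SE 0.12, limma's adjusted p = 0.0018). That fall was not called with quantile normalization (adjusted p = 0.0586).

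Homocysteine is either remethylated by betaine or passed to cysteine. Bhmt, the betaine methyltransferase, held 18917, 33475, 39812 and 40039.5 in controls and 27093, 29984, 24397 and 30778 in knockout livers. Control 1 was the lowest of all 8 livers, while controls 2 to 4 lay above every dKO liver (log2 -0.18, SE 0.20, limma's adjusted p = 0.52). Without control 1 Bhmt was called lower (log2 change -0.43, limma's adjusted p = 0.0163). Its relative Bhmt2, 17758 bases away, stood at 3834 ± 339 and 4174 ± 348 (log2 0.12, limma's adjusted p = 0.294), and reads of such close copies can be split between them by the counting.

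Transsulfuration leads in 2 steps from homocysteine to cysteine, and the first enzyme fell while the second did not pass the test. Cbs, the cystathionine synthase of the first step (chromosome 17, 31608894 to 31637238, minus strand), held 11125, 10341, 11494 and 10999 in controls and 6699, 5014, 5357 and 5141 in knockout livers, 50.5% of control (log2 -0.99, SE 0.095, limma's adjusted p = 5.6e-06). Cth, the lyase of the second step, held 9816, 13895, 10300.4 and 14631 in controls against 19909, 18984, 10970.4 and 19530.2 in the dKO. Its dKO livers 1, 2 and 4 lay above all controls and dKO 3 among them, and the change missed the threshold (log2 0.49, SE 0.19, limma's adjusted p = 0.0578). It was called higher in 6 of 18 other settings, among them edgeR (adjusted p = 0.0444) and the setting without dKO 3 (log2 change 0.70, limma's adjusted p = 0.00233).

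Of the 3 proline enzymes 2 fell, and of the 2 for dimethylglycine and sarcosine 1 fell. Prodh2, which oxidises hydroxyproline, held 4846, 4670.2, 4418 and 4337 in controls and 2669.9, 2231, 2309 and 2398 in knockout livers (log2 -0.93, SE 0.076, limma's adjusted p = 1.6e-06). Prodh, the proline dehydrogenase, held 4421, 5331, 5282 and 5886 in controls against 3585, 3621, 3009 and 3819 in the dKO (log2 -0.57, SE 0.10, limma's adjusted p = 0.000608). All dKO livers were below all controls in both. Aldh4a1, the dehydrogenase that follows them, held 4893, 5744, 5407 and 5236 in controls against 5707, 4506, 3803 and 4558 in the dKO (log2 -0.21, limma's adjusted p = 0.154). The groups overlapped, with 32.5% of its exonic bases shared with another annotated gene on the same strand. Dmgdh, which demethylates the dimethylglycine left by betaine, held 6574, 7983, 7118 and 7569.9 in controls against 5103, 4759, 4647 and 4982 in the dKO (log2 -0.58, SE 0.078, limma's adjusted p = 8.2e-05). Sardh, the sarcosine dehydrogenase of the next step, held 13481, 16787, 14885 and 15900.3 in controls against 14515, 12480.4, 10430.5 and 13701 in the dKO, with overlapping groups (log2 -0.26, limma's adjusted p = 0.0819).

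A ratio of related enzymes within a liver does not depend on the size factor of its library, though it can move with quantile normalization. Reads are not corrected for length in it, so only its difference between livers is read. They were formed for 10 pairs, 8 of which had 3 or more reads in every liver, and were not tested. The log2 ratio of Got1 to Got2, the mitochondrial aspartate aminotransferase, was -1.48, -1.47, -0.99 and -0.77 in controls and 0.73, 0.08, 0.48 and 0.30 in knockout livers. The ratio was higher in every dKO liver than in any control. Tdo2 against Ido2 gave 4.22, 4.35, 3.80 and 4.06 in controls against 5.16, 4.87, 4.71 and 4.63 in the dKO. Sds against Sdsl gave 4.02, 3.91, 3.67 and 4.10 in controls and 4.61, 4.44, 4.32 and 4.28 in the dKO. Both ratios were higher in all dKO livers. For Shmt1 against the mitochondrial Shmt2 the values were -0.51, -0.58, -0.39 and -0.56 in controls against -0.93, -0.97, -0.73 and -1.05 in the dKO, lower in all dKO livers. The groups overlapped for Gpt against Gpt2, Agxt against Agxt2, Bhmt against Bhmt2 and Prodh against Prodh2, whose mean ratios differed by -0.03, 0.06, -0.30 and 0.35.

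**Figure D3:**
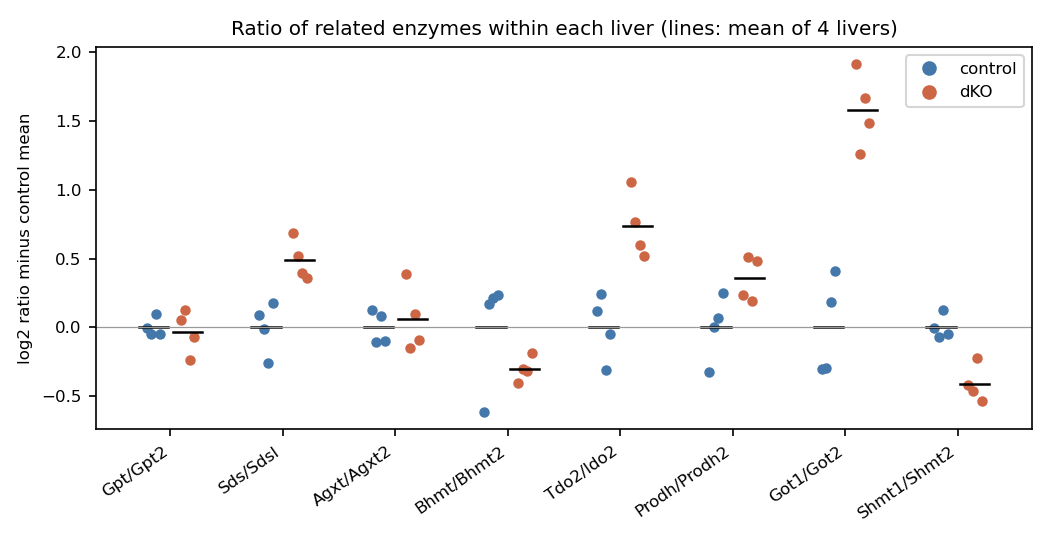
Log2 ratio of 2 related enzymes in each liver, minus the control mean of that pair (points, 4 control and 4 dKO livers, lines at the means). Got1/Got2 shows the widest gap, 1.58, and the groups do not overlap for Sds/Sdsl, Tdo2/Ido2, Got1/Got2 and Shmt1/Shmt2.

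A further list held 64 other genes of the same routes, of which 61 were tested: 31 fell, 9 rose and 21 did neither, with a median log2 change of -0.28. Over all tested genes 17.0% fell and 21.2% rose, and among those with a mean of 300 or more 32.2% and 21.6%. Of 15 on the branched-chain route 13 fell and 1 rose. The rise, named after its value was seen, was that of Bcat1, which had only 1 read over the controls and 16 over the knockouts, with overlapping groups. Among the falls were Acadsb, the short branched-chain acyl-CoA dehydrogenase, from 2631 ± 179 to 1258 ± 85.5 (log2 -1.06, SE 0.077), and the enoyl-CoA hydratase Echs1, from 4698 ± 127 to 3556 ± 233. Of 4 lysine genes 3 fell, including Aldh7a1 (10628 ± 402 to 6703 ± 791) and the pipecolate oxidase Pipox (5291 ± 266 to 2740.4 ± 173). Of 13 tested genes of methionine and cysteine 7 fell and 1 rose. Tst, the thiosulfate sulfurtransferase, fell from 3980.4 ± 207 to 1704 ± 228 (log2 -1.23, SE 0.095), and Gclc, the catalytic subunit that starts glutathione synthesis, from 7584 ± 948 to 3486 ± 218. Of 9 tested tryptophan genes 3 fell and 2 rose, with Aadat, an aminotransferase for kynurenine and aminoadipate, going from 1251 ± 90.6 to 618 ± 67.4 and the oxidase Aox1 from 3073 ± 369.9 to 1601 ± 76.4. In the serine and glycine group 3 of 7 fell and 2 rose, the falls including serine racemase Srr (1190.4 ± 88.8 to 669.8 ± 92.0) and the glyoxylate reductase Grhpr (5548 ± 312 to 3477 ± 240.4).

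Of the proline and glutamate genes 2 of 5 fell and 2 rose. Oat, the ornithine aminotransferase, fell from 26153 ± 9343 to 9096 ± 3056 (log2 -1.52, SE 0.26, limma's adjusted p = 0.00056). Mif, which carries a tautomerase activity and is mainly known as a cytokine, was the only 1 of 4 further tyrosine genes to rise, from 1847 ± 168 to 2936 ± 287. None of 3 histidine and folate genes passed the test.

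A list of 16 transcription factors and receptors, chosen as possible regulators of these enzymes, was also counted. Whether each of them controls these enzymes was not tested. Of the 16, 8 fell, 1 rose and 7 did neither (median log2 change -0.37). Over all tested genes 17.0% were lower and 21.2% higher, and at a mean of 300 or more 32.2% and 21.6%. The glucagon receptor Gcgr fell from 6551 ± 338 to 4435 ± 202 (log2 -0.56, SE 0.070, limma's adjusted p = 4.9e-05) and the glucocorticoid receptor Nr3c1 from 1771 ± 87.8 to 1357 ± 111 (log2 -0.39, SE 0.077, limma's adjusted p = 0.00162). The nuclear receptor Nr1i3 fell from 1226 ± 331 to 418 ± 105 (log2 -1.55, SE 0.21). The gene that rose was Cebpb, an activator of liver metabolic genes, from 2705 ± 373 to 3945 ± 409 (log2 0.55, SE 0.11, limma's adjusted p = 0.00167).

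Motifs of 4 factors, chosen after matches were seen, were looked for on both strands of the promoter windows of RefSeq on GRCm38.p6, which reach from 250 bases before to 50 after a gene's start. Windows were given for 47 of the 55 enzymes, and those of Ido2, Gpt, Sdsl, Mat1a, Sds, Cth, Dbt and Kynu were not matched. The HNF4 motif CAAAGTCCA was present in 1 of 47 enzymes and 0.555% of 27025 genes, and the composite ATF4 and C/EBP motif TGATGCAA in 1 of 47 and 1.03%. The CREB motif TGACGTCA (2.03% of genes) and the C/EBP motif TTGCGCAA (0.207%) were in none of the 47 windows. The motifs do not overlap each other in the matches. Both matches are printed with the motif in capitals, since one lies in a gene that rose and the other in a gene that fell. The Got1 window holds the composite motif on its other strand.
Got1 (chr19:43524690-43524717, minus strand): attgcattggTTGCATCAtacaagcctc
Agxt2 (chr15:10358502-10358530, plus strand): cttctaatatCAAAGTCCAgtccagtcag

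Levels of different enzymes were compared only per length, as normalised read counts per kilobase of the union of annotated exons, which understates genes with long annotated isoforms that liver may not use. In controls the highest were Gnmt (26913), Hpd (17971), Mat1a (17222) and Tat (13075), and the lowest was Auh (80.6). In dKO livers the order at the top was Mat1a (23052), Gnmt (20549), Tat (16875) and Hpd (12619). Acmsd went from rank 53 of 55 to rank 38, Got1 from 27 to 10 and Sds from 22 to 9. Gcdh went from 14 to 21. The ranks rest on group means, and neighbouring ranks often differ by less than the spread between livers.

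Together the 55 enzymes took 2.54%, 2.93%, 3.00% and 3.13% of all normalised counts in the control livers. In the knockout livers they took 2.95%, 2.62%, 2.56% and 2.87%. The groups overlapped in this share, in which Mat1a, Tat, Got1, Sds, Acmsd and Sdsl were higher in dKO livers and 33 other enzymes lower. Single livers also moved as a whole. Among controls, control 1 was the lowest of 4 for 38 of 55 enzymes, and its median enzyme lay 0.12 below the control mean on the log2 scale. Among dKO livers, dKO 1 was the highest of 4 for 39 enzymes, with a median 0.14 above the dKO mean, and dKO 3 was the lowest for 31 (median -0.10). Without control 1 the counts were 35 lower and 4 higher, and without dKO 1 they were 37 and 5. The coefficient of variation over 4 livers had a median of 8.31% in controls and 9.97% in knockout livers, and was highest for Bhmt in controls (30.0%) and Cth in knockout livers (24.6%).

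**Figure D4:**
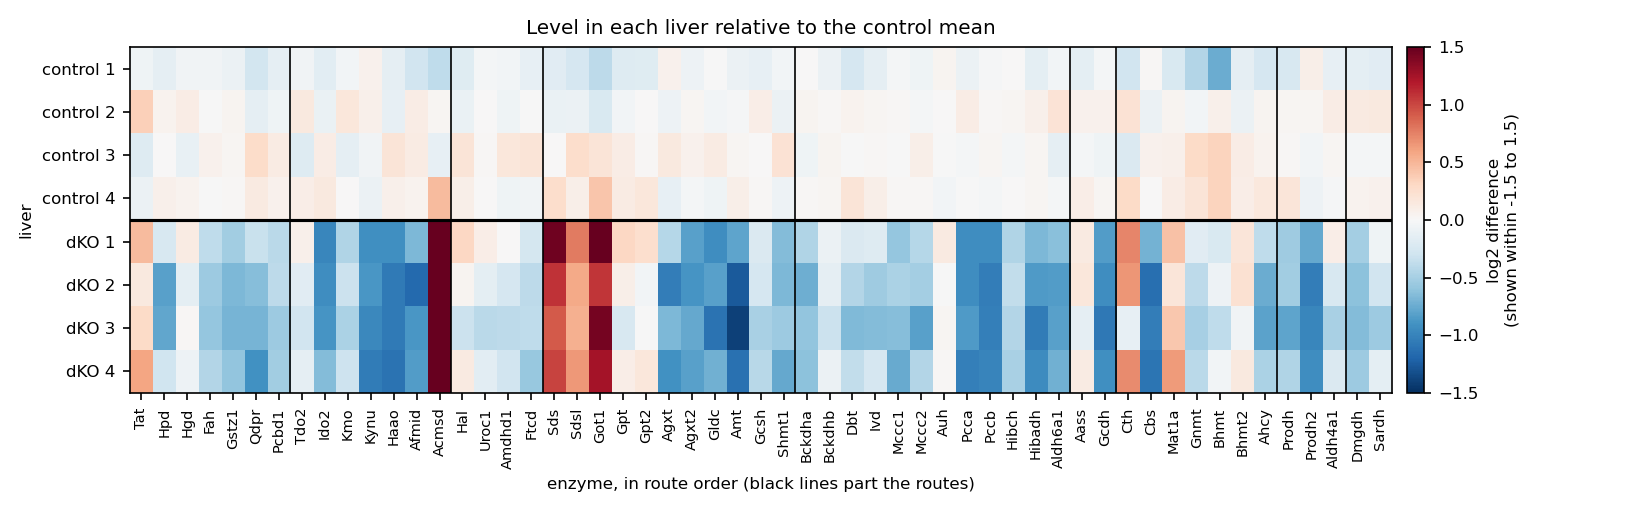
Level of each enzyme (columns, in route order) in each liver (rows) relative to the mean of the 4 controls, as a log2 difference, with colours limited to -1.5 to 1.5. The dKO rows are blue over most columns and red for Acmsd, Got1, Sds and Sdsl, and control 1 is the lowest of the 4 control rows for 38 of 55 enzymes.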

How the data were processed

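The liver RNA-seq libraries of all 8 mice were used. Tools named in the submitters' processing notes, without their order, are DESeq2, featureCounts (1.5.0-p3), HISAT2 (2.0.5) and fastp, and the build is mm10. No source used here names the annotation, strand setting or filters. Although the file name speaks of FPKM, the deposited values are a normalised signal: dividing a library's column by its smallest step gives whole numbers (100% within 0.001), so the authors' values are gene read counts over 1 size factor per library. Counts of reads were recovered by dividing by the steps, for the alternatives only. Of 22052 identifiers 21796 matched a symbol. Genes averaging at least 0.5 (20055) were compared after log2(value + 0.5) in limma 3.58.1 under R 4.3.3. The model had the group as its only term, eBayes moderation used an intensity trend, and p-values were 2-sided, with Benjamini-Hochberg adjustment over all of them and a threshold of 0.05. The script was tested on simulated data. Alternatives were other pseudocounts, filters and scalings, robust variances, a replicate block, edgeR 4.0.16, DESeq2 1.42.0 and leaving out each liver. The enzymes, lists and tests were chosen with earlier results of these data known. Values in every liver are given per route for up to 3 called enzymes with the smallest adjusted p and the one with the largest change, for the 2 uncalled enzymes with the highest means, and for some others chosen after their values were seen. Of other genes, up to 2 called per route and 4 called regulators are named, some are not reported here, and Cebpb was added after its value was seen. Promoter motifs and the mean of 300 were also chosen afterwards. The list names Mmut and Tf stand in the table as Mut and Trf.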

Additional observations from a re-analysis of the deposited data

Results flagged for a closer look

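In 8 of 148 groups of 4 livers 1 liver lay far from the other 3, by Dixon's 95% criterion for 4 values, which compares the gap with the whole range. Chance gives about 1 in 20, or 7.4 of 148. Among the enzymes, dKO 3 was low for Cth (10970) and for Aass (6109), control 3 was high for Amdhd1 (6671) and Shmt1 (3907), and control 1 was low for Bckdhb (1271). Among other genes, dKO 3 was low for Grhpr (3119), dKO 4 was high for Zfp36l1 (267) and control 3 was low for Zfp36l2 (997).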

How the results depend on the processing

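Of the 33 falls 28 and of the 6 rises 4 stood in each of 18 other settings. The exceptions were Hpd, Ftcd, Kmo, Ivd and Ahcy, which were not called with quantile normalization, and Tat and Mat1a. Of the 16 enzymes with no call only 2, Auh and Bckdhb, kept both that status and their sign in each setting. Aldh4a1, Amdhd1, Sardh and Uroc1 were called lower without dKO 1. Aass, Bhmt2, Cth, Gpt, Gpt2 and Hgd were called higher with quantile normalization. With quantile normalization 12 enzymes were called higher, where 6 were before (over all genes 3638, where 4244 were before). The changes of Amdhd1 (0.0094), Bhmt (0.097), Hgd (0.25), Tdo2 (0.11) and Uroc1 (0.13) turned positive in that setting. Of these 5 only Hgd was called higher there. Enzymes near 0 also changed sign when 1 liver was left out: Gpt ran from -0.017 (without dKO 1) to 0.17. Hal ran from -0.051 (without dKO 1) to 0.16 and was also negative without control 1 (-0.022). Hgd ran from -0.068 to 0.022 (without dKO 2) and was also positive without control 2 (0.017) and dKO 4 (0.0011). Over the settings that left out 1 liver, 1 to 2 regulators were higher. The cause was not tested. Mice of the 2 groups share only a number: deviations of same-numbered livers correlated at -0.016 to 0.030, and 1 of 4 controls and 1 of 4 dKO livers correlated best with its own number. With the replicate block 5 enzymes rose and 33 fell, and 4021 and 3112 of all genes did. The p-values of limma rest on the spread between these 8 livers within their groups. Each gene's variance was moderated towards a trend with intensity over all genes, so its own spread is not the only part. The 4 livers per group limit the precision.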

Other observations

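Of the listed genes of these routes, Mat2a, a second methionine adenosyltransferase gene, had a total of 2 reads over the 4 controls and 3 over the 4 knockouts. Dao, the D-amino acid oxidase, had 1 and 1, and Bcat1, the cytosolic branched-chain aminotransferase, had 1 and 16. Mat2a is known to be expressed in most cells, and no source used here gives the annotation of the counting, so nothing is read from its count. With so few reads no ratio to Mat1a or Bcat2 was formed.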
